A study of Mus musculus with 8 samples.

Results

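CTCF binding was recorded by ChIP-seq, in which DNA bound to a protein is precipitated and sequenced, in cultured mouse cortical neurons with and without NMDA, an agonist of one class of glutamate receptor. The regions described here were found in the NMDA list and in no control region, not even by 1 bp, and their summits lay inside a protein-coding gene, more than 1 kb from every gene end. There were 2663 such NMDA-only regions, out of 36186 NMDA regions on chromosomes 1 to 19, X and Y and out of 15931 NMDA regions inside genes. Stimulated neurons received 50 µM NMDA for 10 minutes and were then kept for 50 minutes without it, and control neurons were left untreated. Both groups were wild-type neurons of Swiss-Webster embryos taken at embryonic day 16 and grown to day 13 in vitro. The growth protocol of every sample also mentions etoposide, a topoisomerase inhibitor, but no label gives it as a treatment. Each condition had 2 ChIP replicates, which the authors merged into 1 list of reproducible regions by the irreproducible discovery rate (IDR) procedure.

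Since there is 1 list per condition, no difference between NMDA and control neurons has a replicate spread to be judged by. The sequencing depth behind each list is unknown. All intervals given are 95% intervals and cover counting error only. The list records whether CTCF passed the authors' threshold, so a region absent from the control list may still have had CTCF signal in control neurons. The neuronal identity of the cultures could not be checked with these data, which hold no expression values.

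The zinc fingers of CTCF read a long, partly conserved DNA motif. Together with cohesin it stops loop extrusion and so sets the borders of chromatin loops. Inside genes, CTCF binding has been tied to pausing of RNA polymerase II and to the inclusion of nearby exons, and to promoters that start shorter transcripts within a longer gene.

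Sequence could be shown only where the summit of a region lay in a RefSeq promoter window, which runs from 250 bases before to 50 bases after an annotated start. This held for 37 of the 2663 regions, at 40 windows of starts within longer genes. A short core of the CTCF motif was searched on both strands: CC, any 3 bases, AG, any 2 bases, then GGC. It occurred in 6 of 40 windows with an NMDA-only summit (15.0%, Wilson interval 7.06 to 29.1%), in 101 of 281 windows with the summit of a shared region inside a gene (35.9%, 30.6 to 41.7%), and in 2828 of all 32851 windows (8.61%). For control-only regions inside genes it occurred in 6 of 41 windows (14.6%, 6.88 to 28.4%). The difference between NMDA-only and shared windows was −20.9 percentage points (Newcombe interval −30.8 to −5.88). That interval treats windows as independent, although some overlapping windows, such as those of Eif4g3, Ccdc77 and Cops7a, held the same summit. The windows were also not matched for strength of signal, and shared regions inside genes were the stronger. A match is a string of letters and not a measured binding site. Near matches were not counted, so a window without a match may still hold a CTCF motif.

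3 windows with a match are given below in RefSeq sequence of GRCm38.p6, 5′ to 3′ on the strand of the gene, with the match in capitals. They were picked as examples, after their values were seen, from the 6 with a match. The Tsga10 window is chr1:37865033-37865332 on the minus strand, the Tmod2 window chr9:75599084-75599383 on the minus strand and the Potegl window chr2:23207226-23207525 on the plus strand. The Pik3ip1 window, chr11:3330481-3330780 on the plus strand, belongs to the strongest region of the 37 and holds no match to the exact pattern. It does hold gacccagggggc, which departs from the pattern only where that opens with CC.
Tsga10: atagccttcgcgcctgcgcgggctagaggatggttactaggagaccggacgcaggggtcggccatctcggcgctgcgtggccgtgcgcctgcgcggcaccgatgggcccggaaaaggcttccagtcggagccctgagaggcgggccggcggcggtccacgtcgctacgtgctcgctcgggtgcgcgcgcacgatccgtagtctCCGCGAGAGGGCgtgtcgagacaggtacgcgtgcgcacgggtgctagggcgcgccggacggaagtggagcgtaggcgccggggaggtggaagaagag
Tmod2: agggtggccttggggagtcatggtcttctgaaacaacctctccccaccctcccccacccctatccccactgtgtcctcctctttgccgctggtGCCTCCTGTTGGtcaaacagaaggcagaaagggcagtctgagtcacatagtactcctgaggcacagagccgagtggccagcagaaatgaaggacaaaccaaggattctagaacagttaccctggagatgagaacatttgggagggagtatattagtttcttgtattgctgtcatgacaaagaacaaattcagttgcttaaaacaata
Potegl: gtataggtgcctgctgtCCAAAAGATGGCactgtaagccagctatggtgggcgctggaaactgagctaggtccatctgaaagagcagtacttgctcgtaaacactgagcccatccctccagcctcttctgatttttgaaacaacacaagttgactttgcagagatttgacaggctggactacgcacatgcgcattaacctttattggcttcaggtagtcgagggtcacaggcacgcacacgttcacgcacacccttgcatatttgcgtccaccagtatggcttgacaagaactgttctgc
Pik3ip1: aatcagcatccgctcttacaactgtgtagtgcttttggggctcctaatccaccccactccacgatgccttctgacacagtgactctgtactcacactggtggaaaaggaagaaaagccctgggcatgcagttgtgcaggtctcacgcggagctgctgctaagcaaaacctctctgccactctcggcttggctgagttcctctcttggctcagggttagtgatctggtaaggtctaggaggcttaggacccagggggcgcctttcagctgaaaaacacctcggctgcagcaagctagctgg

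In the Tsga10 window the summit fell on base 244 and the match began at base 204. In the Tmod2 window, in the gene of the actin-capping protein tropomodulin 2, the summit fell on base 114 and the match began at base 94. In the Potegl window these were bases 21 and 18. The signal of a region is the deposited −log10 p-value, and the NMDA list also gives a −log10 p-value for each of its replicates, called here the first and second replicate column. The Tsga10 region had 19.7 in the first and 29.0 in the second column, the Tmod2 region 13.2 and 29.2, and the Potegl region 8.05 and 17.7. The Pik3ip1 region, in a gene for a negative regulator of PI3-kinase, had 41.3 and 31.4. The other matches lay in windows of Usp2, Trnau1ap and Cops7a, with replicate summits 1191, 65 and 556 bp apart.

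NMDA-only regions inside genes were weak regions of the NMDA list in both replicate columns. Their signal had a median of 28.7 (quartiles 23.3 and 38.0), against 109 (54.5 and 207) for shared regions inside genes. In the first column the lowest value was 7.46, the median 11.96 and the highest 51.6, against a median of 38.5 in shared regions. In the second column these were 8.84, 15.8 and 134, against a median of 67.8 in shared regions. Both columns reached 20 in 176 NMDA-only regions and 30 in 32. The authors' reproducibility score was at its ceiling of 1000 in 20.1% of NMDA-only regions and 84.8% of shared regions inside genes. The membership rule depends on what was detected in the NMDA list, so these values describe the regions and carry no test. The lists also had different floors of signal. The lowest signal of NMDA-only regions was 17.7. Inside genes the control list began at 32.8 in control-only and 32.5 in shared regions, above the NMDA-only median of 28.7. Shared regions inside genes had a median of 174 in the control list, against 109 in the NMDA list. The cause of this difference was not tested. The NMDA signal is the sum of both replicate columns. The control list has no replicate columns, so whether its signal was built alike could not be checked. Floors and medians of the lists may therefore be on unlike scales.

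The second column was higher than the first in 2003 of 2663 NMDA-only regions (75.2%), against 81.1% of shared regions inside genes. It was at least 3 times the first in 155 NMDA-only regions (5.82%) and in 10.8% of shared regions, and the first was at least 3 times the second in 0 NMDA-only regions. Within quartiles of signal the order was the other way round, though not under every setting. The NMDA list was cut into 4 quartiles of signal at 41.2, 90.9 and 197. In the weakest quartile the second column was higher in 72.5% of NMDA-only regions and 68.8% of shared regions (difference 3.76 points, 1.00 to 6.51). That difference was −2.82 points (−5.88 to 0.230) among the strongest regions by the first column, and its interval also included 0 with summits within 100 bp (2.28 points) and in the weakest 10% of signal (0.995 points). In the second quartile it was higher in 85.4% and 77.9% (7.46 points, 3.82 to 10.6). In the 33 NMDA-only regions of the third quartile, the median ratio of second to first column was 3.50, against 1.78 in shared regions of that quartile.

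**Figure D1:**
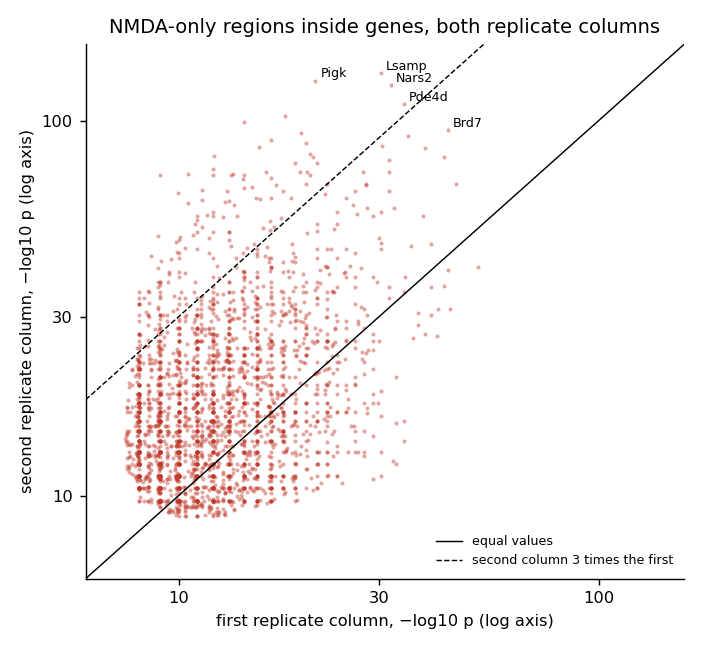
Replicate columns of the 2663 NMDA-only regions inside genes: first column on the horizontal and second column on the vertical axis, both −log10 p on log axes, 1 point per region, with the hosts of the 5 strongest regions named. Most points sit between 7.46 and 20 on the horizontal axis, and the strongest regions lie above the line of equal values.

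The replicates placed these regions nearly as closely as they placed shared regions. The replicate summits lay within 100 bp of each other in 78.5% of NMDA-only regions and 79.9% of shared regions inside genes (difference −1.45 points, −3.19 to 0.215). The median distance was 43 bp in NMDA-only and 30 bp in shared regions. In the weakest quartile the share within 100 bp was 77.7% in NMDA-only regions inside genes, 74.5% in shared regions inside genes, 81.2% in NMDA-only regions between genes and 51.8% in NMDA-only regions at gene ends. The difference from gene ends was 25.97 points (22.0 to 29.9), and that from shared regions was 3.26 points (0.679 to 5.84). The difference from shared regions was not stable. Its interval included 0 with 50% reciprocal overlap (1.83 points), at an IDR of 0.01 (2.47), at 5 kb from gene ends (2.13) and in the weakest 10% of signal (4.18). It was −6.84 points with sharing defined by summits within 100 bp. That rule uses the list summit, within 1 bp of the midpoint of the replicate summits in 30255 of 36186 regions. The rule thus depends on the distance between replicate summits, and the −6.84 points are no test. Only the 33 regions of the third quartile were placed apart more often than shared regions, with 19 of 33 within 100 bp (57.6%) against 84.2% (−26.6 points, −43.4 to −11.3). Widths had a median of 735 bp in NMDA-only and 1258 bp in shared regions, or 700 and 795 bp in the weakest quartile.

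NMDA-only regions made up 16.7% (16.1 to 17.3%) of all NMDA regions inside genes, 13.4% of those at gene ends (within 1 kb) and 15.1% of those between genes. The difference was 3.36 points from gene ends (2.32 to 4.37) and 1.60 points from regions between genes (0.765 to 2.42). The difference from gene ends depended on how sharing was defined: where shared regions had summits within 100 bp of a control summit, it was −3.58 points (−4.85 to −2.33). That rule rests on list summits, mostly midpoints of the replicate summits. In NMDA-only regions the replicate summits lay a median of 90 bp apart at gene ends and 43 bp apart inside genes. What this does to the difference was not tested. In the control list, control-only regions made up 9.83% inside genes, 11.5% at gene ends and 7.43% between genes. The lists are of unequal size and had unknown depth, so the NMDA and control percentages are not compared with each other.

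The order of inside and between depended on signal. In the weakest quartile 2137 of 4193 regions inside genes were NMDA-only (51.0%), against 39.9% at gene ends and 55.5% between genes. The difference was 11.1 points from gene ends (8.39 to 13.7) but −4.52 points from regions between genes (−6.86 to −2.16). In the second quartile 11.7% of regions inside genes, 4.30% at ends and 12.97% between genes were NMDA-only, with differences of 7.45 points (5.92 to 8.84) and −1.22 points (−2.71 to 0.254). In the third quartile 33 of 3964 regions inside genes were NMDA-only. In the strongest it was 0 of 3578, with an upper limit of 0.107%.

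**Figure D2:**
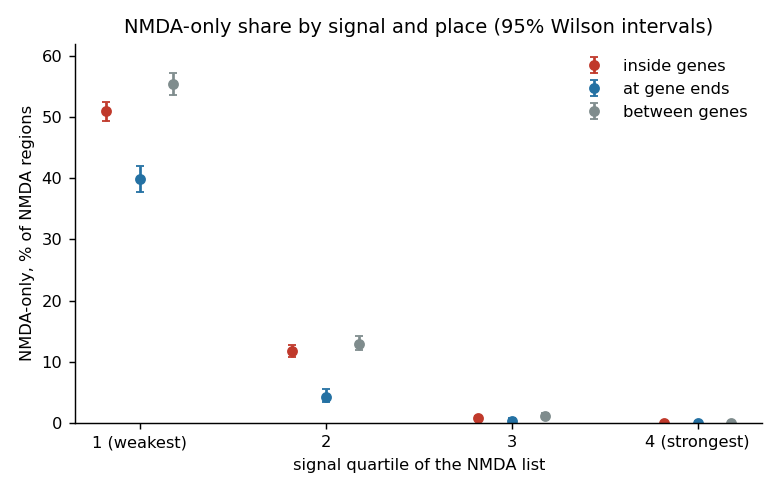
NMDA-only regions as a percentage of NMDA regions (vertical axis) by quartile of NMDA signal (horizontal axis), for regions inside genes, at gene ends and between genes, with 95% Wilson intervals. In the weakest quartile the share was 51.0% inside genes, between 39.9% at gene ends and 55.5% between genes, and it was near 0 in the strongest.

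Of all NMDA-only regions, 47.4% were inside genes, against 43.4% of shared NMDA regions (4.02 points, 2.60 to 5.44). Of control-only regions 46.5% were inside genes, against 43.3% of shared control regions (3.20 points, 1.37 to 5.04). NMDA-only and control-only regions thus differed by 0.931 points, with an interval of −1.25 to 3.11 that includes 0. By chromosome the NMDA-only share of NMDA regions inside genes ran between 14.3% on chromosome 11 (12.4 to 16.4%) and 19.5% on X (15.4 to 24.3%), and these intervals overlap.

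Most NMDA-only regions lay over 10 kb from any control region, a distance like the usual spacing of NMDA regions. The nearest other NMDA summit was at a median of 12889 bp from NMDA-only summits and 11045 bp from shared summits inside genes. The gap from NMDA-only regions to the nearest control region had a median of 12551 bp, and 1507 regions (56.6%) lay over 10 kb away. Another 205 lay within 1000 bp, of which 99 lay within 500 bp. The nearest were a region in Eogt at 43 bp and one in Hps1 at 70 bp. The shared regions of fewest overlapping bases, in Socs2 and Becn1, overlapped a control region by 11 and 30 bp. At the limit of 1 kb from a gene end, the summits just inside were in Klc1 at 1003 bp and Myom1 at 1004 bp, and those just outside were in Fbxl19 at 994 bp and Gtpbp2 at 986 bp. The replicate summits were 886 bp apart in Klc1 and 139 bp apart in Myom1.

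The strongest region lay in Lsamp, the gene of the limbic system-associated membrane protein, a neuronal adhesion molecule (chr16:40465516-40467116). It had 30.3 in the first and 134 in the second column, and the replicate summits were 2 bp apart. The regions in Nars2, a mitochondrial asparaginyl-tRNA synthetase, and Pigk, a subunit of GPI transamidase, had 32.0 and 124, and 21.2 and 128. The Pde4d region, in a cAMP phosphodiesterase gene, had 34.3 and 111. In these 4 regions the second column was 3.22 to 6.04 times the first.

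The region in Brd7, a bromodomain subunit of a SWI/SNF complex, had 43.7 and 94.1, but its replicate summits were 591 bp apart and a control region lay 1797 bp away. Further regions among the 10 strongest were in Sulf1, Itgae, Adamts3 and Lars, with signals of 126, 123, 121 and 116. The highest lower column was in Nedd4l, a ubiquitin ligase gene, with 45.7 and 67.6 and summits 7 bp apart (chr18:65021517-65022531). In Ccdc30 and Lancl3 the first column was the higher, with 51.6 against 40.7 and 43.8 against 39.8. The Wdfy2 region had 39.9 and 46.8, and it lay 492 bp from a control region.

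Some hosts held CTCF regions of the NMDA-only class alone. In 409 of 2205 host genes (18.5%) the span widened by 1 kb held no shared and no control region. This share was not set beside that of other genes. The strongest regions in such hosts were in Sulf1 (heparan sulfate sulfatase), Lars (cytosolic leucyl-tRNA synthetase), Npsr1 (the neuropeptide S receptor), Itgb8 (an integrin subunit) and Dcun1d5. Their signals were 126, 116, 96.5, 92.3 and 84.4, and Lars held 2 NMDA-only regions, the others 1 each. The Npsr1 region had 31.6 and 64.9 and lay 381547 bp from the nearest control region, whereas in Itgb8 the columns were unequal, at 12.1 and 80.2.

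The 2663 regions lay in 2205 of 21887 protein-coding genes (10.1%), and 13 of them lay in 2 overlapping gene spans. Of the hosts, 1841 held 1 region, 292 held 2 and 72 held 3 or more. Hosts were long genes: their span had a median of 69915 bp, against 46756 bp for genes with a shared region inside, 82294.5 bp for genes with a control-only region and 17169 bp for all genes. The share of genes that held an NMDA-only region was 1.20% under 10 kb, 6.97% at 10 to 30 kb, 15.8% at 30 to 100 kb, 31.7% at 100 to 300 kb, 46.4% at 300 to 1000 kb and 59.3% at 1000 kb or more. Control-only regions were inside 5.96% of all genes, and by the same classes of length inside 0.833%, 3.56%, 8.75%, 19.6%, 32.9% and 55.9%.

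Per length of gene interior the order was the opposite. Over 988 Mb of interior sequence there were 2.69 NMDA-only regions per Mb (exact Poisson interval 2.59 to 2.80), 13.4 shared and 1.47 control-only regions per Mb. The NMDA-only density was 5.13 per Mb in genes under 10 kb and 0.833 per Mb in genes of 1000 kb or more. Shared regions fell alongside, with 34.7 and 4.18 per Mb, and so did control-only regions, with 3.56 and 0.631 per Mb. Density therefore fell with gene length in all 3 classes.

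The NMDA-only share of the NMDA regions inside genes moved less. It was 12.9% (10.6 to 15.5%) in genes under 10 kb, between 15.9% and 18.01% in the classes of 10 to 300 kb, and 16.6% in the 2 longest classes. In genes of 100 to 300 kb it was 4.99 points above that in genes under 10 kb (2.11 to 7.54, with each region counted once, as 18.05% and 13.1%). These were the classes of highest and lowest share, so a difference above 0 was fixed by the choice and is no test. Genes over 100 kb had 17.5% and genes up to 100 kb 16.1% (1.42 points, 0.248 to 2.60). Between genes of 300 kb or more and genes under 30 kb the difference of 1.22 points had an interval that includes 0 (−0.622 to 3.10). Among regions at an IDR of 0.01 in both lists, that difference was 6.65 points (4.44 to 8.89).

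**Figure D3:**
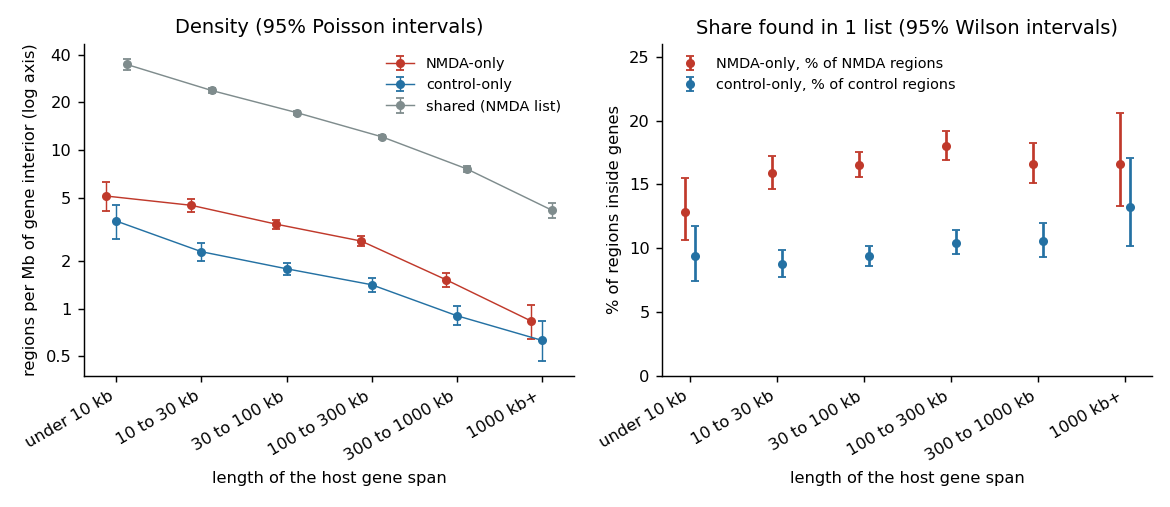
Left, NMDA-only, control-only and shared regions per Mb of gene interior (log axis) by length of the host gene, with exact Poisson intervals. Right, the percentage of NMDA regions inside genes that were NMDA-only and of control regions inside genes that were control-only, with Wilson intervals. Density declines in all 3 classes, and the NMDA-only share stays between 12.9% and 18.01%.

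Camta1, a calmodulin-binding transcription activator gene of 802246 bp, held the most NMDA-only regions, 9, beside 23 shared and 2 control-only regions. In the first column the Camta1 regions ran between 7.95 and 18.8 and in the second between 10.5 and 26.5, all within the 2 weakest quartiles of signal. Atxn1, the gene of ataxin 1, held 6 regions with signals of 21.2 to 50.6, and Cdh13, a cadherin gene, held 6 beside 11 shared and 4 control-only regions. Septin9, Eif4g3, Igsf21, Fry and Nav2 held 5 each. Eif4g3, a translation initiation factor gene of 215308 bp, had only 2 shared regions and 0 control-only regions beside its 5, whose signals were 24.5 to 31.2.

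Of the 72 genes with 3 or more NMDA-only regions, 23 had more of them than shared regions, and 26 also held a control-only region. In 2 of the 72, Psmd11 and Nup210l, there was no shared NMDA region inside; Nup210l was named after its values were seen. Psmd11, a subunit of the proteasome's regulatory particle, held 3 regions over 44634 bp and 0 control-only regions, with signals of 27.8, 37.1 and 43.9. Among the hosts with 3 or more regions, the densest was Ttyh3, a gene of 28495 bp, with 3 regions or 105 per Mb. Psmd11 followed with 67.2, Pacsin1, a gene of endocytosis, with 54.0, Aplp2, a relative of the amyloid precursor gene, with 48.2, and Phf24 with 41.6.

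**Figure D4:**
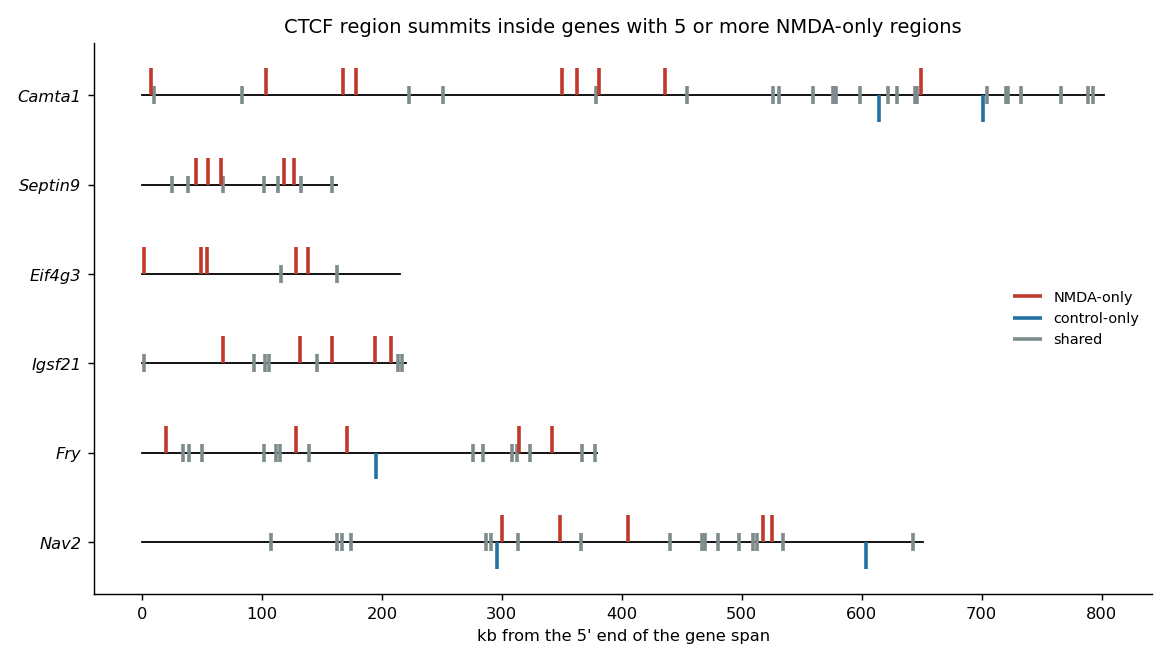
Summits of NMDA-only (up), control-only (down) and shared regions (across the line) along 6 genes with 5 or more NMDA-only regions and a known strand, in kb from the 5′ end of the gene span. The 9 NMDA-only summits of Camta1 lie among its 23 shared summits, and Eif4g3 holds 5 NMDA-only and 2 shared summits.

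Some hosts also held control-only regions, and their share was set beside that in other genes of like length. Of the 2205 hosts, 349 (15.8%) also held a control-only region, and 751 (34.1%) held no shared NMDA region. Over all protein-coding genes, 7218 of 21887 (33.0%) held a shared NMDA region inside, so most genes held none. Hosts were longer than genes in general, and the 34.1% was not compared with genes of like length. Among hosts of 100 to 300 kb 23.2% (20.0 to 26.8%) held a control-only region, against 20.2% (17.7 to 22.8%) of genes of that length with a shared but no NMDA-only region. At 300 to 1000 kb these were 37.2% and 32.4%, again with overlapping intervals.

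Along the host gene, NMDA-only regions were less frequent near the 3′ end than shared regions, and within quartiles of signal the interval of the difference included 0. For the 2126 pairs of region and host whose strand was known, 6.96% fell in the last 10% of the span, against 10.7% of shared regions (−3.72 points, −4.90 to −2.43). With a limit of 5 kb from gene ends in place of 1 kb the difference was −1.80 points (−2.98 to −0.459). This held in hosts up to 100 kb (−3.27 points) and over 100 kb (−4.55 points). Within the weakest quartile of signal the shares were 6.76% and 7.57% (−0.813 points, −2.58 to 0.939), and in the second quartile 7.54% and 8.43% (−0.896 points, −3.34 to 2.27). Against control-only regions, with 8.08%, the difference was −1.12 points (−3.10 to 0.723).

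At the 5′ end, 10.8% of NMDA-only regions fell in the first 10% of the span, against 10.5% of shared and 13.9% of control-only regions. The difference from control-only regions was −3.16 points (−5.61 to −0.827). Annotated starts within the gene lay within 1 kb of 129 NMDA-only summits (4.84%, 4.09 to 5.73%), against 6.81% of shared (6.39 to 7.25%) and 8.76% of control-only summits (7.42 to 10.3%). Neither these shares nor those at the 5′ end were matched for signal, and 80.2% of NMDA-only regions lay in the weakest quartile.

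**Figure D5:**
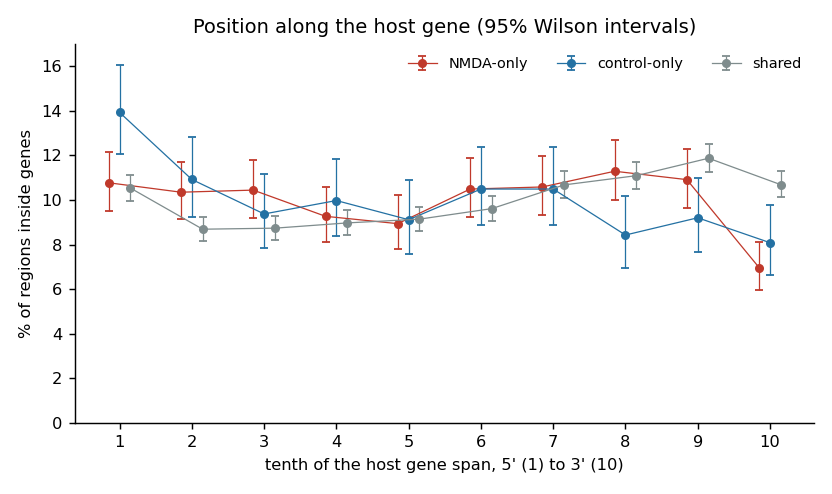
Percentage of regions (vertical axis) in each 10% step of the host gene span, 5′ to 3′ (horizontal axis), for NMDA-only, control-only and shared regions inside genes, with 95% Wilson intervals. NMDA-only regions had 6.96% in the last step, against 8.08% of control-only and 10.7% of shared regions.

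The hosts were then counted in 16 gene lists of neuronal and reference functions. Since hosts were long, each count is set beside the share of all protein-coding genes of the same length classes that held an NMDA-only region, as a description. The median number of NMDA-only regions per gene was 0 in 15 of the lists and in all genes, and 1 in the scaffold list.

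Glutamate receptor genes, among them those of the NMDA receptor, held NMDA-only regions in 12 of 26 cases (46.2%), against 32.7% of all genes at those lengths and 10.1% of all genes. Of the 59 NMDA regions in these genes 17 were NMDA-only (28.8%), against 16.6% over all genes. Control-only regions were in 5 of the 26 (19.2%, against 22.7% at those lengths). The hosts were Gria2, Grid1, Grik1, Grik2, Grik4, Grin2a, Grin2b, Grin3a, Grm3, Grm4, Grm5 and Grm7. Most are named, and their values given, after the values were seen. Among the 16 lists the NMDA-only share of NMDA regions was highest in this one. Other lists with more hosts than all genes of their lengths varied. The share was 27.8% in the CTCF and cohesin list, 22.2% in marker genes and 21.05% in immediate early genes. It was 17.06% in synaptic adhesion and 16.99% in scaffold and release genes. It was 14.2% in calcium, cAMP and kinase, 13.7% in calcium channel and 12.6% in cytoskeleton genes.

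Grin2b and Grin2a encode subunits of the NMDA receptor itself. Grin2b held 3 regions, with 12.9 and 13.5, 8.05 and 14.9, and 11.05 and 11.3 in the first and second columns. Grin2a held 2, with 16.4 and 10.95, and 12.1 and 32.5. The strongest region of the list was in Grm5, a metabotropic receptor gene (chr7:88097347-88098265), with 30.3 and 45.6 and no control region within 179529 bp. The Gria2 region, in an AMPA receptor gene, was weak at 7.52 and 14.6.

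Among genes of synaptic scaffolds and vesicle release 19 of 35 were hosts (54.3%, against 36.3% at those lengths), and 11 held a control-only region (31.4%, against 26.4%). The strongest region was in Ppfia2, a liprin gene of the active zone, with 16.5 and 88.5. Of the 2 regions in Dlg2, a scaffold gene of the postsynaptic density, the stronger had 16.2 and 73.0 and lay 842 bp from a control region. Synaptic adhesion genes were hosts in 17 of 38 cases (44.7%, against 42.8%), and 16 held a control-only region (42.1%, against 34.5%). Nrxn3, a neurexin gene, held 3 regions, the strongest with 14.3 and 71.7. Dlg2 and Nrxn3 were named after their values were seen.

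Calcium, cAMP and kinase genes were hosts in 19 of 43 cases (44.2%, against 36.5% at those lengths), led by Pde4d, and genes of the cytoskeleton and small GTPases in 17 of 36 (47.2%, against 38.0%), led by Ctnna2 with 19.4 and 73.0. Control-only regions were in 11 of the 43 (25.6%, against 25.1%) and in 14 of the 36 (38.9%, against 26.3%). Calcium channel genes were hosts in 7 of 18 (38.9%, against 32.0%), while 8 of the 18 held a control-only region (44.4%, against 21.2%). Cacna2d1, an auxiliary subunit, had 15.5 and 85.0, with replicate summits 708 bp apart. Potassium and sodium channel genes were hosts in 11 of 35 (31.4%, against 37.1%), led by Kcnj6 with 26.3 and 36.0, and 10 held a control-only region (28.6%, against 25.8%).

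Axon guidance genes were hosts in 10 of 33 cases (30.3%, against 37.4%), cadherins in 9 of 30 (30.0%, against 32.8%), and neuronal transcription and chromatin genes in 13 of 39 (33.3%, against 33.6%). Control-only regions were in 9 of the 33 (27.3%, against 26.3%), 5 of the 30 (16.7%, against 23.1%) and 11 of the 39 (28.2%, against 22.4%). RNA-binding genes were hosts in 6 of 26 (23.1%, against 29.0%), while 14 of the 26 held a control-only region (53.8%, against 19.7%). GABA receptor and synthesis genes were hosts in 3 of 17 (17.6%, against 22.2%), and 3 held a control-only region (17.6%, against 13.7%).

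Immediate early genes, which neuronal activity induces within minutes, are short, and 4 of 31 were hosts (12.9%, against 4.14% at those lengths). They were Fosb, Npas4, Nr4a1 and Per1, transcription factor genes and a clock gene. Fosb had 13.4 and 12.8, Npas4 15.4 and 9.65, Nr4a1 11.05 and 11.8, and Per1 8.05 and 13.95, all in the weakest quartile of signal. The Fosb and Per1 regions lay 384 and 317 bp from a control region, and the replicate summits were 697 bp apart in Fosb and 756 bp apart in Nr4a1. The Per1 summit lay in the promoter window of an annotated Per1 start within the gene. Control-only regions were in 0 of the 31, against 2.40% of all genes at those lengths, so few were to be found in a list of this size. Of the later activity-regulated genes 1 of 24 was a host, Mapk4 (4.17%, against 8.16%), with 11.05 and 50.6, while 4 held a control-only region (16.7%, against 4.61%).

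In a list of CTCF itself, cohesin, topoisomerases and some other DNA-binding factors, 4 of 18 genes were hosts (22.2%, against 18.3%). They were the cohesin loader Nipbl, Top1, the cohesin release factor Wapl and, of the other factors, Zfp143. The strongest had 11.6 and 19.7, in Zfp143. The Wapl summit lay in the promoter window of an annotated Wapl start within the gene. Control-only regions were in 2 of the 18 (11.1%, against 10.9%). Marker genes of astrocytes, oligodendrocytes, microglia and vessels, cell types that cortical cultures may hold beside neurons, were hosts in 6 of 25 (24.0%, against 11.5%). The strongest was in Ptprc, a leukocyte gene, with 8.44 and 35.2. A control-only region was in 1 of the 25 marker genes (4.00%, against 6.71%), which was Ptprc as well. What share of the CTCF signal came from such cells was not tested.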

How the data were processed

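CTCF ChIP-seq was made with 1% formaldehyde for 10 minutes, DNA of 200 to 500 bp, a CTCF antibody diluted 1 to 200 and a 1% input, per the labels' protocols. The submitters' processing notes name Trimmomatic, FastQC, BWA, MACS2 and SAMtools and the builds GRCm38.p6 and mm10 with versions not given in the sources used here. The 8 samples form 4 groups of 2, of which the inputs were not analysed here.

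The authors deposited 1 list of IDR regions per condition, with 20 columns for NMDA and 10 for control. The −log10 p-values are the authors' deposited values and grow with the depth of sequencing, which is unknown. The deposited score rises with reproducibility to a ceiling of 1000 and was at least 540. The deposited summit is a distance from the region's start. In the NMDA list it lay within 1 bp of the midpoint of the replicate summits in 30255 of 36186 regions. This held for 2383 of the 2663 NMDA-only regions inside genes. Where replicate summits lay far apart, it need not be a summit of either replicate. In the NMDA list the −log10 p-value was the sum of both replicate columns in 36186 of 36186 regions within 0.001. The file does not tie either column to a labelled replicate.

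Regions on chromosomes 1 to 19, X and Y were placed by their summits on 21887 protein-coding spans of RefSeq GRCm38.p6. Strand came from a table of promoters for 17492 genes. Exons and introns were not used here. A region was shared with 1 bp of overlap. Shares have 95% Wilson intervals, differences Newcombe intervals and densities exact Poisson intervals (numpy 2.4.6, pandas 2.3.3, scipy 1.17.1). The steps were checked on simulated regions. Quartiles of signal were cut on the whole NMDA list.

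The regions and gene lists were chosen with earlier results of these data known. Named genes are the hosts of the 10 strongest regions, of the 6 with the highest lower column, the 8 genes with most regions, the 5 densest with 3 or more, the 5 strongest in genes without a shared or control region, the strongest and the most-hit host of each list, and those nearest the limits. Some genes that the rule takes are not reported here. Other genes named complete a count, or the text says that they were chosen later. The set of the same length classes beside each list was chosen after seeing the data. Alternatives changed overlap, distance, signal and list size.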

Additional observations from a re-analysis of the deposited data

How the results depend on the processing

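Each value was recomputed with other rules. The NMDA-only share of NMDA regions inside genes, 16.7%, was 21.0% with 50% reciprocal overlap, 22.0% with summits within 100 bp, 16.1% with control regions widened by 500 bp, 20.0% at an IDR of 0.01, 12.8% with the strongest regions of both lists in equal number, 13.3% and 13.2% by the first and second replicate column, and 17.7% at 5 kb from gene ends. The density, 2.69 per Mb, was 3.39, 3.55, 1.92, 1.99, 1.99 and 2.44 per Mb under reciprocal overlap, summits within 100 bp, equal number, first column, second column and 5 kb.

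The difference in the share inside genes, NMDA-only minus shared, was 1.77 points with reciprocal overlap, 1.65 with summits within 100 bp and 5.88 at an IDR of 0.01, against 4.02. Between regions inside genes and at gene ends, the 3.36 points were 0.395 with reciprocal overlap, −3.58 with summits within 100 bp, 8.28 at an IDR of 0.01, 4.46 by the second column and 2.03 with a limit of 500 bp. Between regions inside and between genes, the 1.60 points were 3.21 with summits within 100 bp and 0.726 by the second column. Between hosts of 300 kb or more and under 30 kb, the 1.22 points were −1.99 with summits within 100 bp and 6.65 at an IDR of 0.01. In the weakest quartile, the difference in close replicate summits, 3.26 points, was −6.84 with summits within 100 bp and −1.45 over all signals. The −6.84 points are no test, since that rule rests on list summits, mostly midpoints of the replicate summits. The difference in the second column being higher, 3.76 points, was −2.82 by the first column, 9.02 by the second, 0.995 in the weakest 10% and −5.85 over all signals. The deficit in the last 10% of the span was −1.80 points at 5 kb. The causes were not tested. The 3 comparisons of place against gene ends, against regions between genes, and of the last 10% were added after the data were seen. The comparison of genes of 100 to 300 kb with genes under 10 kb took the classes of highest and lowest share. Of 59 named hosts, 49 still held an NMDA-only region at an IDR of 0.01 and 52 at 5 kb.

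No paired analysis was possible because each list was built over both replicates and the replicate columns are not tied to labelled replicates. For the same reason no replicate was left out. Without depth, weak regions missing in control neurons cannot be told apart from regions just under the threshold.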
